A study of Mus musculus with 2 samples.

Results

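The desmosome genes were chosen as 9 named genes: the plaque genes Dsp, Jup, Pkp1, Pkp2, Pkp3 and Pkp4, the cadherin genes Dsg2 and Dsc2, and the membrane protein gene Perp. Of these 9, 8 had a row among the 14261 rows of the expression table, and Pkp1 had none and is not analysed here. The study grew mouse embryonic stem (ES) cells, labelled TRE-ESCs, in suspension in low adsorption dishes. Both cultures had N2B27 medium with LIF and the kinase inhibitors known as 2i, which keep mouse ES cells naive. They differed by doxycycline (dox), the drug that drives tetracycline-responsive (TRE) transgenes: 1 culture had it and 1 did not, and both carried the label 36 h. The labels do not name the transgene, and whether the line is 1 clone is not given in the sources used here. There was 1 RNA-seq library per group, so no test was made, no value has a spread between cultures, and every ratio describes these 2 libraries only.

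Desmosomes are spot-like junctions that tie the keratin filaments of neighbouring epithelial cells together. Desmogleins and desmocollins, both of the cadherin family, span the membrane. Inside the cell their tails bind plakoglobin (the product of Jup) and plakophilins (the Pkp genes), and desmoplakin (Dsp) links this plaque to the intermediate filaments. Perp encodes a tetraspan membrane protein of desmosomes that is also a target of p53 and p63. Dsg2, Dsc2 and Pkp2 are the forms typical of simple epithelia and heart muscle, whereas desmogleins 1 and 3 are typical of stratified epithelia.

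The library labelled dox carried far more Jun RNA, which codes for c-Jun, the factor the series is about: the Jun value was 55 without dox and 3821 with dox. The values are a normalized score in whole numbers, with the same quartiles of 14, 62 and 184 in both libraries. The depth of each library is unknown, so no counting interval can be given. Because each library pools a culture, fewer cells that express a gene and less RNA of it per cell cannot be told apart. The scale is also relative. ES cell markers stayed present in both libraries, and their 12 genes summed to 20902 without dox and 12365 with dox. Among them Pou5f1, which encodes Oct4, was listed at 3230 and 3572 and Nanog at 2508 and 623.

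The start regions of 3 genes are shown, so that Dsp, which was far higher with dox, can be read beside Jup and Pkp4, which were within 2-fold. They are RefSeq sequences on GRCm38.p6, given 5′ to 3′ on the gene's strand, and end at the base before an annotated start. These are the 3 of the 9 genes whose promoters were matched by symbol, and those of Pkp1, Pkp2, Pkp3, Dsg2, Dsc2 and Perp are not shown. The region of Dsp is chr13:38151044-38151293 on the plus strand, that of Jup is chr11:100397791-100398040 on the minus strand and that of Pkp4 is chr2:59160684-59160849 on the plus strand. Capitals mark the GC box, GGGCGG or its complement CCGCCC, a motif chosen after the sequences were seen.
Dsp: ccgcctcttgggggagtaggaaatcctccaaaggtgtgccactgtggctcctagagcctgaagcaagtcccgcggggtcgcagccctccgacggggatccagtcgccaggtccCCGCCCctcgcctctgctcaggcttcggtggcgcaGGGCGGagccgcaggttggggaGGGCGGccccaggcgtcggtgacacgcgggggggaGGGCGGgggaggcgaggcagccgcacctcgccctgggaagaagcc
Jup: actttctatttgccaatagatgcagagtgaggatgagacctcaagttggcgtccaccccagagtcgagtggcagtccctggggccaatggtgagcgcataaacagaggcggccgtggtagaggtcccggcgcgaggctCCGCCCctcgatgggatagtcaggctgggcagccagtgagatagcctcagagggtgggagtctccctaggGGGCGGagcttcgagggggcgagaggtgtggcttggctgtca
Pkp4: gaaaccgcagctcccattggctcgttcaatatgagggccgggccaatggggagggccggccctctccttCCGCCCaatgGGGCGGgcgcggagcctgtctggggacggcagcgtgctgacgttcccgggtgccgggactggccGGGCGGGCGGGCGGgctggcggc
Within 250 bases before the start, the Dsp sequence held 4 GC boxes and the Jup sequence 2. The Pkp4 sequence held 5, of which 3 overlap each other, and a second Pkp4 start held 0. The GC box stood in 32.7% of 32851 mouse promoter windows of that length, and in 61.1% of the 8561 windows of genes that reached the expression floor of 50 used below. The AP-1 motif, TGAGTCA or TGACTCA, was in none of the 4 windows of these genes and in 4.46% of all windows. The cyclic AMP response element, TGACGTCA on both strands, was in none of the 4 and in 1.55% of all. The E-box CACGTG was in none of the 4 either, against 6.02% of all. Another E-box, CAGGTG or CACCTG, also chosen after the sequences were seen, stood once, at −47 of the second Pkp4 start, and in 17.2% of all windows. The GC content was 72.4% for Dsp, 62% for Jup and 68.4% for the first Pkp4 window, against a median of 52.4%. In windows of genes at the floor, AP-1 stood in 2.98%, the cyclic AMP response element in 2.87%, CACGTG in 9.17% and the other E-box in 15%. GC boxes stood before the start of Dsp, 24.4-fold higher with dox, and before 1 of 2 starts of Pkp4, which was level. Most windows of genes at the floor held one too, so this says nothing particular about these genes.

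The desmosome genes comprised 5 that were far higher with dox and 3 that were within 2-fold, and no gene was lower by 2-fold. Ratios were taken with a pseudocount of 10 on each value, so ratios of low genes are understated. A gene was counted as higher at 2-fold or more, provided that 1 of its values reached a floor of 50, as 8547 genes did. By that count 5 of the 8 genes were higher, where 9.23% of all genes were, and 0 were lower, where 5.49% were. The median log2 ratio of the 8 was 2.97, and that of all genes was −0.08. Of the 8, 4 were under 50 without dox and entered only through the library with dox, so they had to differ. Of all 752 genes that entered in this way 58.8% were at least 2-fold higher and 30.1% at least 4-fold. All 4 of these desmosome genes were at least 4-fold higher, a size that 3.11% of all genes at the floor reached. Of the 4 desmosome genes at 50 or more without dox 1 was higher, Dsp, beside 4.45% of 7795 genes. Ratios of the low genes depend on the pseudocount: with 50 in place of 10, the log2 ratio was 2.96 for Pkp3, 3.28 for Perp, 2.08 for Dsc2 and 1.93 for Pkp2, against 4.63, 4.50, 3.33 and 2.61. With 1 it was 5.79 for Pkp3 and 4.03 for Dsc2. The members were chosen with results of these libraries known, so these counts describe them and support nothing further.

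**Figure D1:**
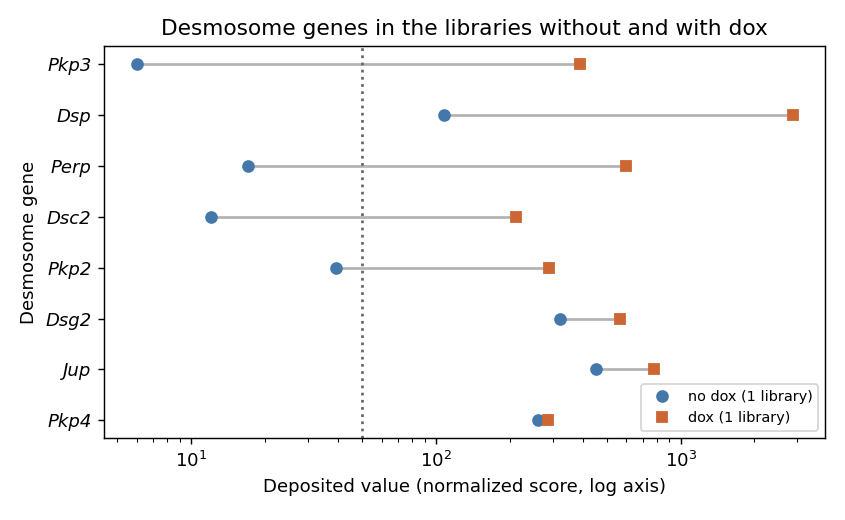
Deposited value of each desmosome gene (normalized score, log axis) in the library without dox (circles) and with dox (squares), 1 library each, ordered by log2 ratio. The dotted line marks the floor of 50. Pkp3, Dsc2, Perp and Pkp2 lie to its left without dox, and every square lies to the right of its circle.

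Among the plaque genes, Dsp stood out. Dsp, whose product anchors the filaments, had a value of 108 without dox and 2870 with dox, a log2 ratio of 4.61. Ordered by value, it stood at rank 5311 of all rows without dox and at rank 76 with dox. By log2 ratio it held rank 25 of 8547, so that 0.293% of the genes had a ratio as high or higher. Dsp lies on chromosome 13 from 38151294 to 38198577 on the plus strand, and its longest annotated transcript has 24 exons and 9592 nt. Transcript length moved with the ratio across genes (Spearman rho 0.269 across 8457 genes, a description with no p), and 96.5% of genes had a shorter transcript than Dsp. Of the 292 genes with one at least as long, 16.1% were 2-fold higher and the median log2 ratio was 0.25. With the trend on length removed the log2 ratio of Dsp was 4.32. A gene of unresolved type, Gm10129, is annotated across the Dsp start on the opposite strand and had no row. The labels do not state that strand was used in counting.

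The 5 genes nearest to Dsp in both values, by distance on the log2 scale over these 2 libraries, were Krt8, Peg10, Jun, Cavin1 and Lgals3. Krt8, a keratin gene of simple epithelia, was closest, at 111 and 2672, a distance of 0.11. Peg10, an imprinted gene, was at a distance of 0.64, Jun at 0.95, the caveolar coat gene Cavin1, listed at 111 and 1271, at 1.17, and the galectin gene Lgals3 at 1.22. A match over 2 libraries says only that both values are alike.

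Jup was already present without dox and was within 2-fold. Plakoglobin, its product, serves in both desmosomes and adherens junctions. Jup was listed at 449 and 778, a log2 ratio of 0.78, and 12.4% of all genes had a ratio as high. It lies on chromosome 11 from 100368958 to 100397763 on the minus strand. Its closest relative in the adherens junction, the beta-catenin gene Ctnnb1, stood at 2221 and 2871, a log2 ratio of 0.37. Levels of different genes were set side by side per length, as value per kb of the longest transcript. This assumes that the deposited score was not already scaled to length, which no source used here states and the values do not settle. Across 14115 genes the score had a Spearman rho with length of 0.09 without dox and 0.169 with dox. The score per kb had a rho with length of −0.209 without dox and −0.147 with dox, so the division did not remove the relation to length. Jup stood at 140 per kb without dox and 243 with dox, and Ctnnb1 at 613 and 792. Plakoglobin RNA was therefore below beta-catenin RNA in both libraries on this scale.

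The order of the plakophilins differed between the libraries. Plakophilins bind desmosomal cadherins and desmoplakin at the plaque, and plakophilin 4 is also found at adherens junctions. Pkp3, which is broadly present in epithelial desmosomes, was listed at 6 and 387, a log2 ratio of 4.63 and the highest among the desmosome genes. It held rank 24 by ratio, next to Dsp at a log2 ratio of 4.61. This order depends on the pseudocount. With a pseudocount of 50 Pkp3 was no longer the highest, at 2.96 beside 4.21 for Dsp and 3.28 for Perp. With a pseudocount of 1 Pkp3 remained the highest, at 5.79 beside 5.06 for Perp and 4.72 for Dsp. Pkp2 was listed at 39 and 289, a log2 ratio of 2.61. Pkp4 was listed at 261 and 288, a log2 ratio of 0.14, which 36% of all genes reached. Per kb of transcript, the order without dox was Pkp4 at 56.6, Pkp2 at 13.3 and Pkp3 at 2.06. With dox it was reversed, with Pkp3 at 133, Pkp2 at 98.6 and Pkp4 at 62.4. Pkp4 made up 78.6% of the plakophilin sum per kb without dox and 21.3% with dox, while Pkp3 went from 2.86% to 45.2%. The sum of these 3 was 71.9 per kb without dox and 294 with dox, 4.08 times as much. Not divided by length, the order was the same in each library, though Pkp2 and Pkp4 then differed by little with dox, at 289 and 288. The share of Pkp4 was then 85.3% without dox and 29.9% with dox, and that of Pkp3 1.96% and 40.1%. The genes lie on different chromosomes: Pkp3 on chromosome 7 from 141078218 to 141090510, Pkp2 on chromosome 16 from 16213318 to 16272712 and Pkp4 on chromosome 2 from 59160850 to 59355208.

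**Figure D2:**
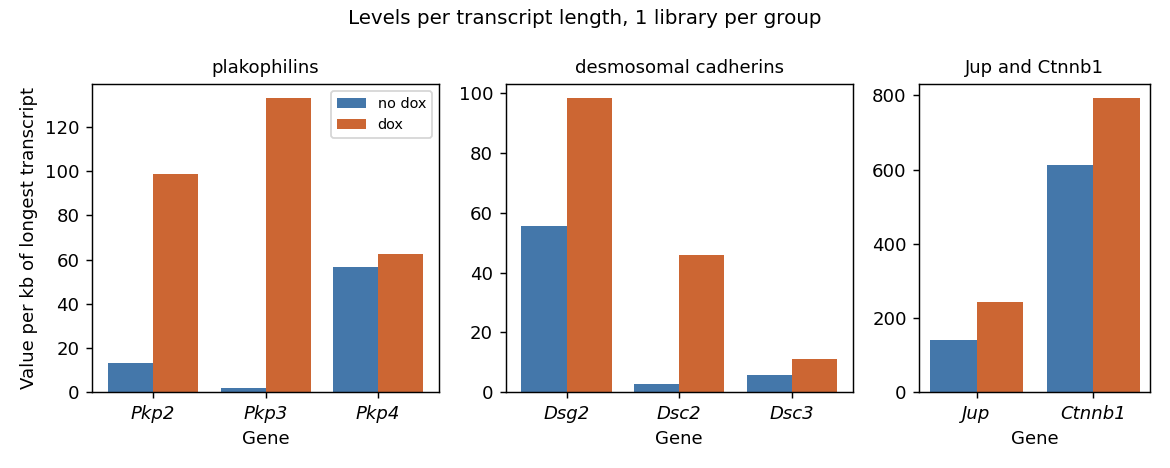
Value per kb of the longest annotated transcript for the plakophilins (left), the desmosomal cadherins at or above the floor (middle) and Jup beside Ctnnb1 (right), in the library without dox (blue) and with dox (orange). Each panel has its own axis from 0, and bars have no error because there was 1 library per group. The order of the plakophilins is reversed between the libraries, from Pkp4 at 56.6 as the highest to Pkp3 at 133.

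The desmosomal cadherins showed the same split between a gene already present and a gene near the bottom of the scale. Dsg2, the desmoglein found in nearly all tissues with desmosomes, was listed at 321 and 566, a log2 ratio of 0.80 that 12% of all genes reached. Its partner Dsc2, the desmocollin of simple epithelia, was listed at 12 and 212, a log2 ratio of 3.33. Per kb, Dsg2 stood at 55.7 and 98.2 and Dsc2 at 2.59 and 45.8. Dsc2 thus went from 4.04% to 29.5% of the cadherin sum over Dsg2, Dsc2 and Dsc3, or from 3.3% to 25.3% when values were not divided by length. These genes share a cluster of 9 desmosomal cadherin genes on chromosome 18 from 19960930 to 20604521, with 5 of the 9 in the table. Dsc2 lies there from 20030633 to 20059554 on the minus strand and Dsg2 from 20558074 to 20604521 on the plus strand. Next to Dsc2 lies Dsc3, a desmocollin of basal epithelial cells, which was listed at 31 and 59, a log2 ratio of 0.75. Between Dsc2 and Dsg2 lie the desmoglein 1 genes, and Dsg1a was listed at 0 in both libraries and Dsg1b at 2 and 1. The list of cadherins of the family beyond Dsg2 and Dsc2 held 7 genes, of which 3 had a row and 1, Dsc3, reached the floor, with 0 higher and 0 lower. An antisense gene, Gm16090, overlaps Dsg2 on the opposite strand and had no row.

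Perp was listed at 17 and 600, a log2 ratio of 4.50 and rank 31 of 8547. It lies on chromosome 10 from 18845020 to 18857073 on the plus strand. Its relative Tmem47 was listed at 111 and 101. Per kb, Perp stood at 8.71 without dox and at 307 with dox, beside Dsp at 299. That closeness rests on the division by length, since the values themselves were 600 for Perp and 2870 for Dsp.

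Set side by side per kb, under the same assumption on length, the desmosome genes were less even without dox. Without dox Jup alone made up 48.3% of the sum over the 8 genes, Pkp4 19.5% and Dsg2 19.2%, with Dsp at 3.88% and Perp at 3%. With dox Perp made up 23.9%, Dsp 23.3% and Jup 18.9%, and Pkp4 4.85%. Not divided by length, the highest with dox were Dsp at 2870, Jup at 778 and Perp at 600, so these shares depend on the division. The highest level per kb was 68.2 times the lowest without dox and 6.71 times with dox. The lowest without dox was Pkp3, whose value of 6 was far under the floor, so the 68.2 rests on a near-zero value. The sum was 290 per kb and 1290 per kb. Without replicates, neighbours in either order, such as Pkp4 and Dsg2 without dox, cannot be ranked beyond their error.

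**Figure D3:**
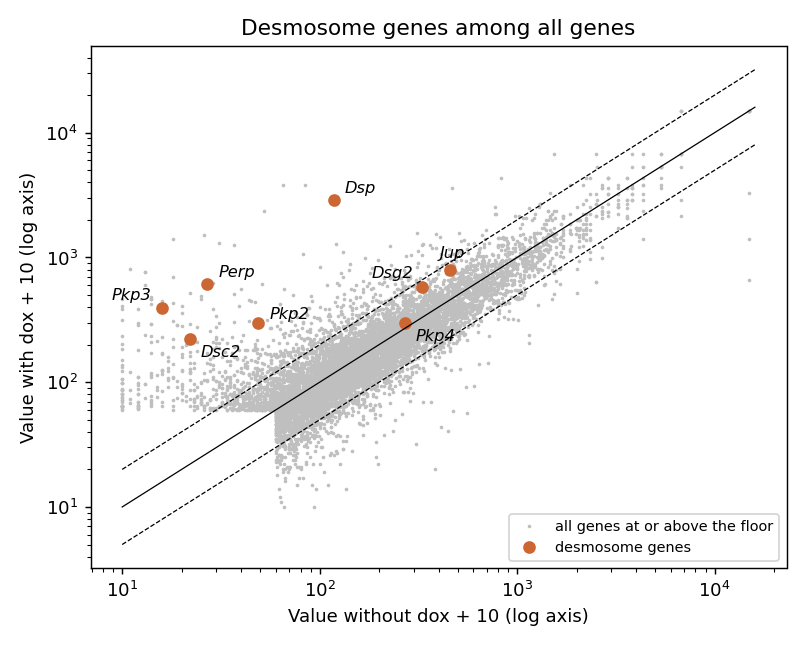
Value with dox against value without dox, each with 10 added (log axes), for the 8547 genes that reached the floor of 50 (grey) and the 8 desmosome genes (orange). The solid line marks equal values and the dashed lines 2-fold. Dsp, Pkp3, Perp, Dsc2 and Pkp2 lie above the upper dashed line and Jup, Dsg2 and Pkp4 between the dashed lines.

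Genes beside the desmosome genes on their chromosomes were mostly within 2-fold. Of the 16 nearest protein-coding genes with a row, 1 on each side of each gene, 11 reached the floor, of which 0 were higher and 1 lower. Among all genes at the floor 9.23% were higher and 5.49% lower, so with 11 genes these counts are near the share of all genes. Around Dsp, Riok1 was listed at 100 and 93 and Snrnp48 at 120 and 71. Around Pkp3, B4galnt4 was listed at 159 and 162 and Sigirr at 45 and 55. The lower gene was Hap1, beside Jup, at 449 and 178. Among neighbours under the floor, Arfgef3 beside Perp, at 13 and 46, and P3h4 beside Jup, at 4 and 21, were past 2-fold higher. Tnfaip3, also beside Perp, was listed at 0 and 9.

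Other plakins and plaque-associated genes were mixed. Of 10 genes 9 had a row and 7 reached the floor, of which 2 were higher and 0 lower, with a median log2 ratio of 0.81. Among all genes at the floor 9.23% were higher, and 1 of these 7 entered only through the library with dox. Ppl, which encodes periplakin, a plakin of the epithelial cell cortex, was listed at 4 and 456, and Plec, which encodes the cytolinker plectin, at 218 and 1224. The spectraplakin genes Macf1, at 1226 and 2223, and Dst, at 1045 and 1844, were within 2-fold, as were Pnn, at 489 and 555, and Kazn, at 214 and 152. Evpl, which encodes envoplakin, the partner of periplakin in stratified epithelia, was listed at 7 and 4. Cdsn, the corneodesmosin gene, was under the floor at 6 and 46.

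Keratins, the filaments that desmosomes hold, were mostly higher, but most of those counted entered only through the library with dox. Of 19 keratin genes 11 had a row and 9 reached the floor, of which 8 were higher and 0 lower, with a median log2 ratio of 4.47. Of those 9, 7 entered only through the library with dox, so they had to differ. Among all 752 genes that entered so, 58.8% were at least 2-fold higher. Of the 2 keratin genes at 50 or more without dox 1 was higher, beside 4.45% of all genes at that level. The simple epithelial pair was Krt8, at 111 and 2672, and Krt18, at 10 and 395. Krt19 was listed at 4 and 474 and Krt7 at 0 and 374. Keratins of stratified or activated epithelium were higher too, with Krt6a listed at 0 and 303, Krt16 at 4 and 281, Krt5 at 0 and 226 and Krt17 at 4 and 109. Krt42 was level, at 113 and 114.

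Of 11 other intermediate filament genes 10 had a row and 6 reached the floor, of which 4 were higher and 1 lower (median log2 ratio 1.05). Among all genes at the floor 9.23% were higher and 5.49% lower, and 2 of these 6 entered only through the library with dox. The vimentin gene Vim was listed at 499 and 1571, Nefl at 129 and 279, Nes at 55 and 151 and Ina at 20 and 52, while the neurofilament gene Nefh was lower, at 75 and 22. Desmin (Des), the filament that desmosomes hold in heart muscle, was under the floor at 1 and 13.

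Adherens junction genes had E-cadherin and catenins already high without dox. Of 20 symbols, among them some older names of the same genes, 15 had a row and 13 reached the floor, of which 4 were higher and 0 lower (median log2 ratio 0.60), beside 9.23% higher among all genes. Of the 11 at 50 or more without dox 3 were higher, where 1 of 2 keratin genes and 1 of 4 desmosome genes were, so on that footing no difference between the lists can be read. Ctnna1, which encodes alpha-catenin, was listed at 1531 and 6779, the vinculin gene Vcl at 306 and 1118, the P-cadherin gene Cdh3 at 52 and 196 and the N-cadherin gene Cdh2 at 30 and 110. The E-cadherin gene Cdh1 was listed at 2876 and 4351 and the p120-catenin gene Ctnnd1 at 905 and 1090.

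Hemidesmosome genes, which fix keratins to the matrix, were higher in 5 of the 6 that had a row and reached the floor, out of 7, with 0 lower and a median of 2.39. The integrin genes Itga6, at 303 and 1569, and Itgb4, at 18 and 143, form the hemidesmosomal integrin. Among laminin genes, Lama3 was listed at 27 and 294 and Lamb3 at 4 and 60. Cd151, a tetraspanin of the same complex, was listed at 215 and 293. Of these 6 genes 3 entered only through the library with dox, where 58.8% of all such genes were higher. Of the 3 at 50 or more without dox 2 were higher, beside 4.45% of all genes at that level.

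**Figure D4:**
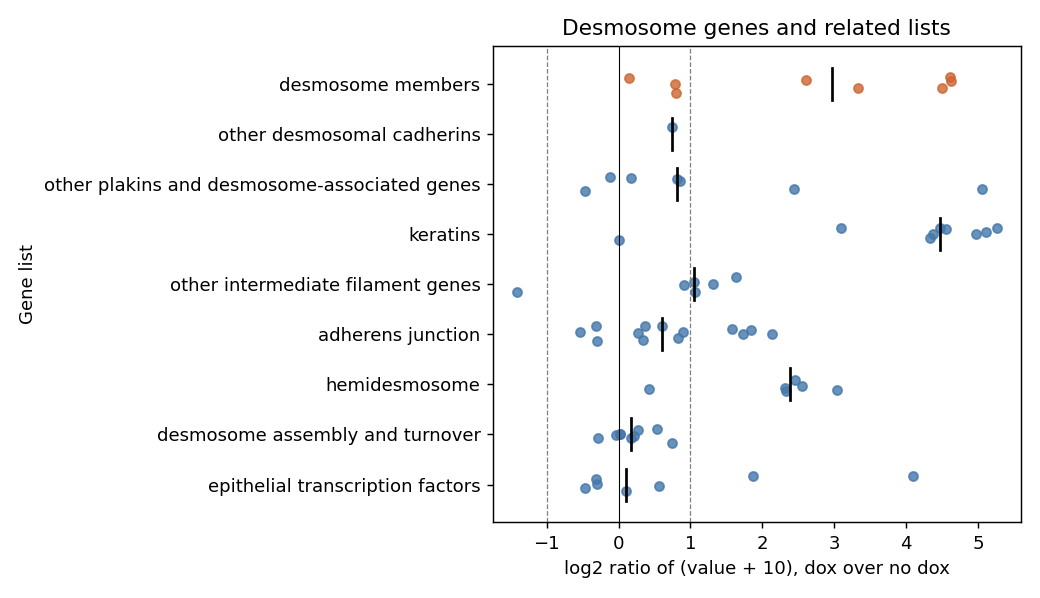
Log2 ratio, dox over no dox, of the genes that reached the floor of 50, for the desmosome genes (orange) and 8 related lists (blue). Each point is 1 gene, vertical offsets within a list carry no meaning, black bars are list medians and dashed lines mark 2-fold. Medians are 2.97 for the desmosome genes, 4.47 for keratins and 0.60 for adherens junction genes, but 4 of 8, 7 of 9 and 2 of 13 of these genes reached the floor only with dox, which raises a list's median.

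None of the 9 genes of desmosome assembly and turnover at the floor passed 2-fold. Of 15 genes 13 had a row and 9 reached the floor, with 0 higher, 0 lower and a median of 0.17. All 9 were at 50 or more without dox, where 4.45% of all 7795 genes were higher. A count of 0 among 9 is thus near the share of all genes, and no contrast with the desmosome genes can be read from it. The small GTPase gene Rhoa was listed at 877 and 1025 and the ezrin gene Ezr at 826 and 840. The protease genes Adam10 and Adam17, whose products shed cadherins and other membrane proteins, were listed at 214 and 363 and at 164 and 132. Prkca, which encodes protein kinase C alpha, at 8 and 29, and the growth factor receptor gene Egfr, at 5 and 32, were under the floor but past 2-fold higher.

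Epithelial transcription factor genes had 11 of 15 with a row and 7 at the floor, of which 2 were higher and 0 lower (median log2 ratio 0.10). The 2 higher genes entered only through the library with dox, so they had to differ. Grhl3, a grainyhead factor of surface epithelium, was listed at 41 and 176. Klf5 was listed at 237 and 255 and Elf3 at 411 and 333. Grhl1, a known regulator of desmosomal cadherin genes, was under the floor at 13 and 20, as was Grhl2, at 4 and 6. All 6 repressors of epithelial junction genes were under the floor, among them Snai1 at 27 and 17 and Zeb1 at 47 and 48. Zeb2, at 0 and 11, was past 2-fold higher, while Twist1 was listed at 12 and 2. The 6 genes summed to 86 and 81.

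Markers of several cell types, not all of which carry desmosomes, were read beside these results. Of 10 trophectoderm and simple epithelium markers 9 had a row and summed to 395 and 4244. Of these, 6 reached the floor, with 5 higher, 0 lower and a median of 4.41. The 5 higher genes were Tead4, at 50 and 158, and 4 keratins also counted above. Tfap2c was listed at 159 and 113, and the defining factors Cdx2, at 28 and 34, Eomes, at 32 and 18, and Gata3, at 1 and 6, were under the floor. Of 10 keratinocyte and stratified epithelium markers 3 had a row, with sums of 31 and 285, and 2 reached the floor, of which 1, Krt5, was higher and 0 lower, with a median of 2.66. Dsg1a was at 0 in both libraries. Of 8 cardiomyocyte markers 3 had a row, all under the floor, with sums of 18 and 7. Fibroblast markers, 10 with a row and all under the floor, summed to 34 and 81. Among them Col3a1, at 2 and 39, was past 2-fold higher, Col1a2 was listed at 8 and 19, and Dcn and Lum at 0 in both libraries. Endothelial markers, 5 of 6 with a row, summed to 308 and 227, with 0 of 2 at the floor past 2-fold and a median of −0.08. Macrophage and blood markers, 5 of 8 with a row, summed to 28 and 229, with Csf1r, at 1 and 111, and Cd68, at 19 and 96, higher, a median of 2.66 and Lyz2 at 0 in both libraries. ES cell markers, all 12 of which had a row and reached the floor, had 8 lower and 1 higher, with a median of −1.32. Among all genes at the floor 5.49% were lower and 9.23% higher. The higher gene was Epcam, at 228 and 520. Beside Nanog, the lower genes were Fgf4, at 631 and 129, Tdh, at 2512 and 628, and Utf1, at 270 and 73. Esrrb, at 1531 and 500, Klf4, at 889 and 314, Zfp42, at 1047 and 459, and Tfcp2l1, at 2672 and 1208, were lower too. Some markers at the floor entered only through the library with dox: 3 of 6 trophectoderm, 2 of 2 keratinocyte and 2 of 2 macrophage markers. Such genes had to differ, which raises these counts and medians, and 58.8% of all 752 such genes were at least 2-fold higher. The part of any of these marker differences in the desmosome values was not tested.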

How the data were processed

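Total RNA of 1 suspension culture without dox and 1 with dox was prepared with TRIzol, and TruSeq RNA libraries were run on a NextSeq 500 instrument, per the labels' protocols. The submitters' processing notes name bcl2fastq, Bowtie2, RSEM and the build mm10; versions, annotation, normalization and gene filter were not given in the sources used here. Deposited values were treated as a score, normalized and rounded by the authors, because both libraries had equal quartiles and 75.5% of their sorted positions held equal values (tolerance 0). No count model was used, and depth is unknown.

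Log2 ratios used a pseudocount of 10, a floor of 50 on the larger value and a 2-fold threshold. The desmosome genes, 17 gene lists (183 entries, some shared) and alternatives were chosen with earlier results of these data known. Genes named were the desmosome genes, Jun, list members past 2-fold at the floor, otherwise the list's largest values, and the 5 genes nearest to Dsp; others named, such as low-valued list members and chromosomal neighbours, were chosen after their values were seen. A few list genes covered by that rule are not named here. Of 14259 symbols, 14114 matched 1 gene of GENCODE M21 (GRCm38, the assembly of mm10). The longest transcript gave the length, and the length trend was removed by lowess (fraction 0.3). Chromosomal neighbours were the nearest protein-coding genes with a row. The table held 0 further sample columns. Only the 2-fold call was tested on simulated counts, with known 4-fold changes in genes well above the floor. Changes in low genes, the division by length, the length trend and the promoter steps were not covered. Software was matplotlib 3.10.9, statsmodels 0.14.6, scipy 1.17.1, pandas 2.3.3, numpy 2.4.6 and Python 3.11.15.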

Additional observations from a re-analysis of the deposited data

How the results depend on the processing

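The count of desmosome genes at least 2-fold higher was 5 with a pseudocount of 1 or 50, with no floor, with the median of all genes set to 0, with the length trend removed and at 4-fold. It was 4 with a floor of 250, which leaves out Dsc2, and 7 at 1.5-fold, and 0 were lower in each. Their median log2 ratio was 2.00 with a pseudocount of 50 and 2.61 to 3.45 otherwise. The plakophilin order was the same with the longest coding transcript and with values not divided by length, alternatives chosen after seeing the data. No value here reversed a call, and the causes of the moves below were not tested.

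With a pseudocount of 50, 498 of all genes were higher and 171 lower, median log2 ratios were 2.82 for keratins, 2.99 for trophectoderm, 1.45 for keratinocyte and 1.37 for macrophage markers, and other intermediate filament genes had 1 higher, 0 lower and a median of 0.73. With a pseudocount of 1, the medians of keratins, keratinocyte and macrophage markers were 5.82, 4.37 and 4.04. With no floor, 1255 of all genes were higher and 796 lower, and medians were 0.00 for other desmosomal cadherins, 0.98 for other filament genes and 0.75, 1.49 and 1.54 for keratinocyte, trophectoderm and macrophage markers. Then 2 turnover genes, 1 repressor and 1 fibroblast marker were higher and 1 endothelial marker lower. With a floor of 250, 298 of all genes were higher and 147 lower, and 3 hemidesmosome genes, 2 adherens junction genes, 1 epithelial factor gene and 2 other filament genes (0 lower) were higher. At 1.5-fold, 1425 of all genes were higher and 1511 lower, and 7 adherens junction genes, 4 other plakin genes, 2 keratinocyte markers, 1 turnover gene and 1 other desmosomal cadherin gene were higher. At 4-fold, 266 of all genes were higher and 55 lower, other filament genes had 0 higher and 0 lower, ES cell markers 0 higher and 1 lower, and adherens junction, epithelial factor and macrophage lists 1 higher each. Of 280 list values under these alternatives, 244 stayed within 1.5-fold of the reported count or, for medians, within 0.58 on the log2 scale and on the same side of 2-fold. No paired analysis was possible because each group had 1 library. Depth is unknown, so its effect on low values such as Pkp3 without dox could not be given.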
